A study of Mus musculus with 4 samples.

Results

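Hox and other developmental homeobox genes were examined in mouse embryonic stem cells (mESC) with and without B-type lamins, the nuclear-envelope filament proteins encoded by Lmnb1 and Lmnb2. The members were all protein-coding genes of the Hoxa, Hoxb, Hoxc and Hoxd clusters and of the Pax, Lhx, Dlx, Nkx, Irx, Msx and Barx families and the sine oculis homeobox family, to which Six4 belongs, chosen by symbol alone, with Paxbp1 left out. This gave 91 of the 37991 genes in the count table, 38 of them Hox genes and 53 from the other families. The annotation holds 93 genes of this description, and those without a row were not analysed here. The dKO group consisted of 2 biological replicates of B-type lamin null cells, and the wt group of 2 biological replicates of wild-type cells. All 4 libraries carried the strain label ZHBTc4, a mouse embryonic stem cell line known for its tetracycline-repressible Pou5f1 transgene. The labels give no treatment and do not say whether a genotype was 1 clone or several, so loss of the lamins and a difference between lines cannot be told apart.

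Homeobox genes encode transcription factors that bind DNA through a homeodomain, and Pax factors carry a paired domain beside or in place of it. The Hox genes lie in 4 clusters whose gene order mirrors the order of their expression along the body axis, and the sine oculis, Pax, Lhx, Dlx, Nkx, Irx and Msx factors pattern sense organs, neural tube, limb, muscle and gut. In pluripotent cells most of these genes are known to be held silent by Polycomb complexes at CpG-rich promoters, and they are switched on during differentiation. Regions at the nuclear lamina are known to be rich in silent genes.

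Total counts were 16697970 and 16584014 in the dKO libraries and 12899964 and 14941952 in the wt libraries. Lmnb1 had 69 and 101 counts in dKO libraries, against 8538 and 8321 in wt libraries, and Lmnb2 had 41 and 55 in dKO libraries, against 1343 and 1787 in wt libraries. Markers of the labelled cell type were abundant. Summed over 9 pluripotency genes, the level was 5391 and 5695 CPM (counts divided by the TMM-scaled library size) in dKO libraries and 4645 and 4552 CPM in wt libraries. Within this sum Zfp42 had 1449 and 1435 CPM in dKO libraries and 666 and 613 CPM in wt libraries. Its log2 fold change (dKO minus wt) was 1.17 (edgeR unadjusted p = 9.48e-05, adjusted p = 0.0886). Of the 9 values 4 were positive and 5 negative, with Pou5f1, known as a transgene in this line, at -0.01. Zfp42 and Klf4 were the 2 at an unadjusted edgeR p under 0.05, both positive, against 5.57% of all tested genes in either direction. Klf4 had a log2 fold change of 0.57 (edgeR unadjusted p = 0.0114, adjusted p = 0.712). Markers of other cell types were lower, with 55.3 to 114 CPM over 7 neural genes, 19.8 to 32.1 CPM over 7 mesoderm genes and 7.43 to 45.5 CPM over 8 fibroblast genes across the 4 libraries, and none of these genes was at 0 in every library. Sums over 5 neural crest genes were 77.2 and 125 CPM in dKO libraries and 55.4 and 82.5 CPM in wt libraries, and over 6 endoderm genes 24.99 and 22.8 CPM in dKO libraries and 21.3 and 21.8 CPM in wt libraries. The neural crest sum was mostly Foxd3, with 71.7 and 117 CPM in dKO libraries and 48.2 and 73.3 CPM in wt libraries. Sox10, of the same list, had 3 and 4 counts in dKO libraries and 2 and 1 in wt libraries. No marker gene passed an adjusted edgeR p of 0.05. The fibroblast sum was 7.43 and 33.6 CPM in dKO libraries and 11.9 and 45.5 CPM in wt libraries. Its difference between replicates lay mostly in Acta2, a smooth-muscle actin, with 43 and 472 counts in dKO libraries and 72 and 560 in wt libraries, while Thy1 had 41 and 54 in dKO libraries and 48 and 33 in wt libraries. The trophoblast sum over 7 genes was the highest of these lists, at 258 and 495 CPM in dKO libraries and 406 and 660 CPM in wt libraries.

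The promoters of 4 members are shown because they span the range of levels found below, from the highest (Six4) through a neural gene with similar levels in all libraries (Pax6) and the leading gene of a Hox cluster (Hoxd13) to a gene near the limit of detection (Nkx1-1, with 1 count in each of the 4 libraries). The sequences are from RefSeq on GRCm38.p6, 5′ to 3′ on the strand of the gene, and end at the outermost annotated start. Capitals mark CpG dinucleotides. Six4 was shortened to 219 bases so that no annotated transcript is included, and the others are 250 bases long.
Six4 (chr12:73113457-73113675, - strand): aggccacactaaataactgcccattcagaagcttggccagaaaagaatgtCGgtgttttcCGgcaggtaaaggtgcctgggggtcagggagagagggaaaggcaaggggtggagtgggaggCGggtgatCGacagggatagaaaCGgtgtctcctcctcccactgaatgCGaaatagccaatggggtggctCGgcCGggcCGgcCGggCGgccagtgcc
Pax6 (chr2:105668646-105668895, + strand): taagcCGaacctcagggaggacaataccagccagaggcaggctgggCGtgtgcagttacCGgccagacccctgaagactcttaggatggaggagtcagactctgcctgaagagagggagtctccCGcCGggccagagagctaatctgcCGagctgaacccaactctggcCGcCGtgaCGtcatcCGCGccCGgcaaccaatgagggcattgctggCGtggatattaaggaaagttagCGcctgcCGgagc
Hoxd13 (chr2:74667975-74668224, + strand): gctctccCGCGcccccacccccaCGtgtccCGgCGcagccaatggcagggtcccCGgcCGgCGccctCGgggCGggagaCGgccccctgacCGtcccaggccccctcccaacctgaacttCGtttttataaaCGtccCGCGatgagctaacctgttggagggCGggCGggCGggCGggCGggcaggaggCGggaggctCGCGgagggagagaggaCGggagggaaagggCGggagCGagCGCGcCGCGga
Nkx1-1 (chr5:33434091-33434340, - strand): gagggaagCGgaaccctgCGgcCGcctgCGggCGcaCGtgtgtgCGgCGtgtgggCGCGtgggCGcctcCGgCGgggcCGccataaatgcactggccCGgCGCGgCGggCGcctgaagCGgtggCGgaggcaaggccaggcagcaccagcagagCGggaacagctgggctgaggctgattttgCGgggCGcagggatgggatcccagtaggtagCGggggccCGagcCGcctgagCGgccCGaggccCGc

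RefSeq gave a promoter for 59 of the 91 members, and 18 of those windows reached into a longer transcript of the same gene in GENCODE release M21. CpG dinucleotides in the 250 bases before the start had a median of 14 per member promoter and 6 over all 27025 promoters. Of the 59 members 52 lay above that median. Promoters with over 50% GC and an observed-to-expected CpG ratio over 0.6 made up 57.6% of the members and 31.2% of all promoters. The median was 13 CpGs in the 15 members that passed the count filter and 14 in the 44 that did not, while CpG-dense promoters by the measure above made up 66.7% of the tested and 54.5% of the untested ones. Nkx1-1 held 30 CpGs against 13 in the full window of Six4. The GC box GGGCGG, searched on both strands, was in 35 of 59 member windows (59.3%) and in 33.0% of all windows, and CCAAT was in 30 (50.8%) and in 34.5% of all. The TATA box TATAAA was in 4 member windows (6.78%, against 12.98% of all), the homeodomain core TAATTA in 2 (3.39%, against 4.91%) and the octamer ATTTGCAT in 0 (against 1.62%). These are letter matches in a short window, and they do not show binding.

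**Figure D1:**
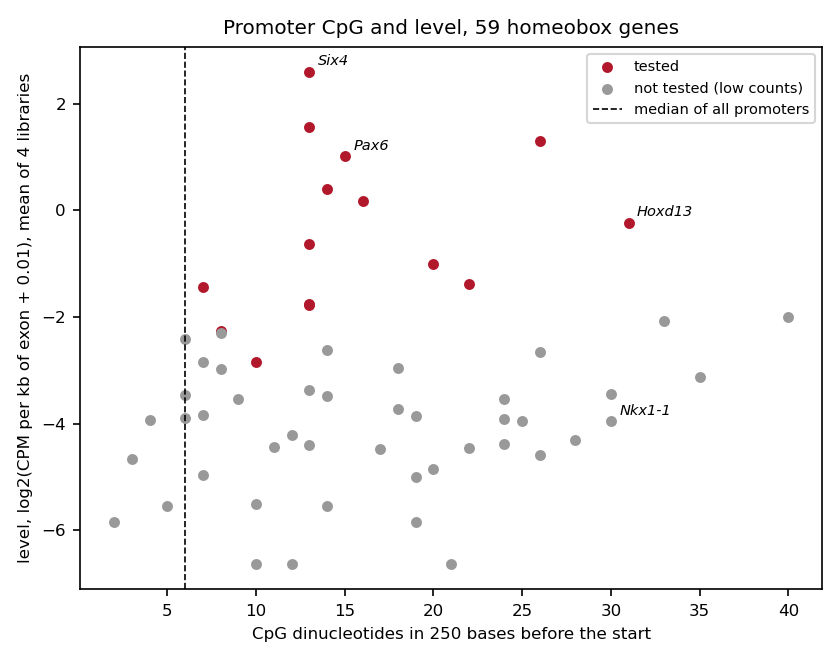
CpG dinucleotides in the 250 bases before the RefSeq start (x axis) against the mean level over 4 libraries as log2 of CPM per kb of exon plus 0.01 (y axis), 1 point per member, with members that passed the count filter in red and the others in grey. Most of the 59 points lie right of the dashed line, the median of 6 CpGs over all promoters, and Nkx1-1 with 30 CpGs lies far below Six4 with 13.

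Most members were detected, but at very few reads. At least 1 count was found for 71 and 78 of the 91 members in dKO libraries 1 and 2, and for 70 and 68 members in wt libraries 1 and 2. The dKO libraries were deeper, and at the total count of the shallowest library the expected numbers were 68.1 and 74.5 in dKO libraries and 70.0 and 66.7 in wt libraries. The genotypes overlapped after this adjustment. In all, 55 members had a count in every library, 28 in some and 8 in none, and 63 members never exceeded 10 counts in any library. Counts in dKO cells only were found for 6 members (Hoxa5, Hoxc8, Hoxd10, Hoxd12, Irx6 and Pax4), and in wt cells only for 2 (Hoxa6 and Nkx1-2). Each had at most 3 counts in a library, so no difference was detectable at this depth. The dKO libraries were deeper and the share over all genes is not given here, so the 6 and the 2 are not compared. A count of 0 allows a level of up to 0.184 and 0.179 CPM in dKO libraries and up to 0.235 and 0.197 CPM in wt libraries (3 counts per library, counting error only).

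The 8 members at 0 in every library were Hoxb2, Hoxb3, Hoxb5, Hoxb6, Hoxd3, Nkx2-6, Nkx3-2 and Six3. Of these, 7 overlap a gene on the opposite strand in the table, and Nkx3-2 does not. Such an overlap was also present in 24 of the 83 members with counts (28.9%). Counting can drop reads where genes overlap, and whether it used strand is not given in the sources used here, so these zeros limit assigned reads and not transcription. On either strand or with strand unknown, 45 of the 91 members overlap another gene in the table. The genes overlapping these zeros on the opposite strand were themselves nearly empty. Reads dropped from an overlap would be missing from both genes, so this cannot show whether reads were dropped. Hoxb5os, which overlaps Hoxb5 and Hoxb6, had 0 counts in all 4 libraries, Hoxb3os had 1 and 0 in dKO libraries and 0 in both wt libraries, and Six3os1 had 1 and 1 in dKO libraries and 0 and 2 in wt libraries.

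Of the 91 members, 24 passed the count filter of edgeR and were tested, 26.4% against 64.4% of all protein-coding genes in the table. The filter keeps genes with about 10 counts in at least 2 libraries, so the 24 are the better-detected members and not a sample of the list. Hoxc12 passed with the fewest counts, 2 and 17 counts in dKO libraries and 3 and 10 in wt libraries. Hoxd8, with 5 and 17 in dKO libraries and 4 and 5 in wt libraries, had as many as any member that did not pass. The tested members had a median level of 2.01 CPM, against 21.7 CPM over the 14027 genes tested, and 12 of them had at least 1 CPM in every library.

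**Figure D2:**
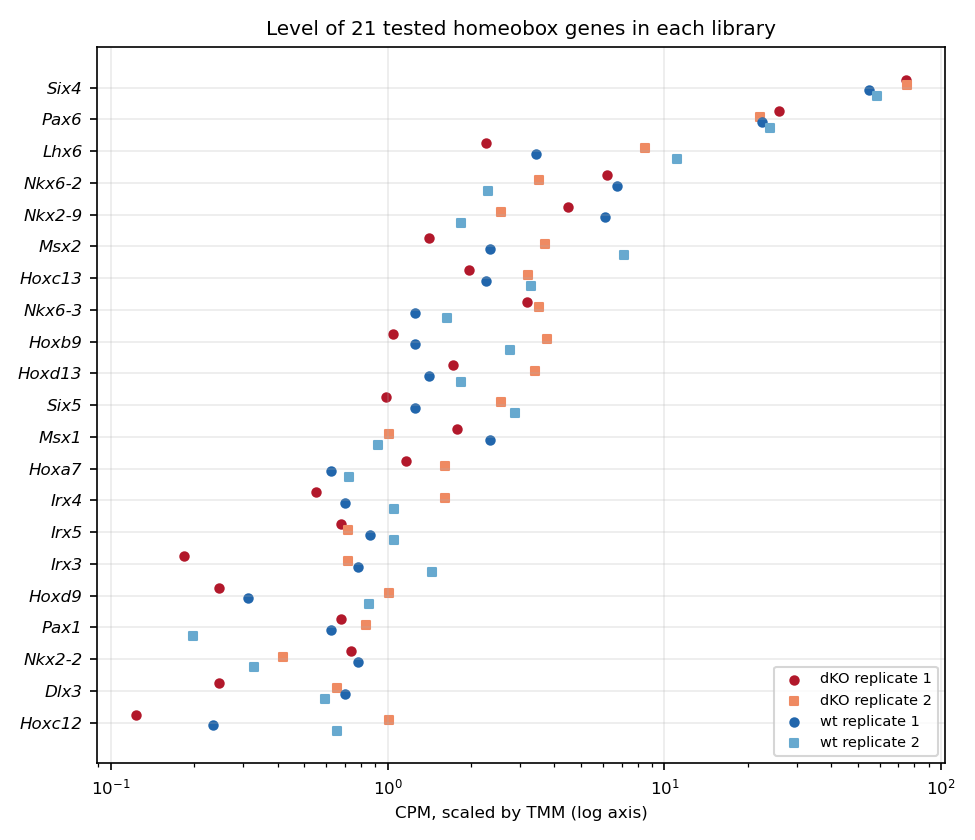
CPM of 21 tested members in each library (x axis, log scale), ordered by mean level, with dKO libraries in red tones and wt libraries in blue tones, circles for replicate 1 and squares for replicate 2. Six4 stands highest at 55.0 to 75.1 CPM, Pax6 follows at 22.2 to 25.8 CPM, and in many members the squares of both genotypes fall on one side of the circles.

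Six4, a transcription factor of muscle and sensory-organ development, was the most abundant member. It accounted for 47.2% and 43.7% of all member counts in dKO libraries and 40.3% and 38.5% in wt libraries. Per kb of exon its level was 6.88 and 6.92 CPM in dKO libraries and 5.06 and 5.41 CPM in wt libraries, which placed its mean at the 53.8th percentile of the tested genes. Well below it by this measure lay Nkx2-9 and Nkx6-2, both factors of the ventral neural tube, with means over 4 libraries of 2.96 and 2.46 CPM per kb, and Pax6, a factor of eye and brain, with 2.02. Levels of Nkx2-9, Nkx6-2 and Pax6 did not differ beyond their spread, since Nkx2-9 alone ran from 2.03 to 3.55 CPM per kb in dKO libraries and from 1.46 to 4.82 in wt libraries.

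No member passed the test between dKO and wt cells at an adjusted p of 0.05 (edgeR quasi-likelihood, smallest adjusted p = 0.723). The background was 12 of 14027 tested genes (0.0855%), 0.0356% higher and 0.0499% lower in dKO cells. In bulk RNA, fewer cells that transcribe a gene and less RNA per cell cannot be told apart. At an unadjusted edgeR p under 0.05 there were 3 of 24 members, among them Six4 and Nkx6-3, all with positive log2 fold changes (dKO minus wt). Over all tested genes 5.57% passed that mark, 2.87% in this direction and 2.71% in the other, where no member did. The 3 members became 0 without dKO replicate 1, 4 without dKO replicate 2, 1 without wt replicate 1 and 2 without wt replicate 2. DESeq2 and limma-voom called 0 members as well, with 2 members each at an unadjusted p under 0.05. The values were positive in 13 of the 24 members and negative in 11, and their median was 0.06, against -0.002 over all tested genes. Without dKO replicate 2 this median was -0.50. Typical values were wide and imprecise, with a median absolute size of 0.38 (all tested genes 0.16) and a median standard error of 0.61 (all tested genes 0.21). The 95% interval lay within 1 log2 unit of 0 for Six4 and Pax6 alone, so for the other 22 tested members a change of 2-fold in one direction or the other was within the interval.

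**Figure D3:**
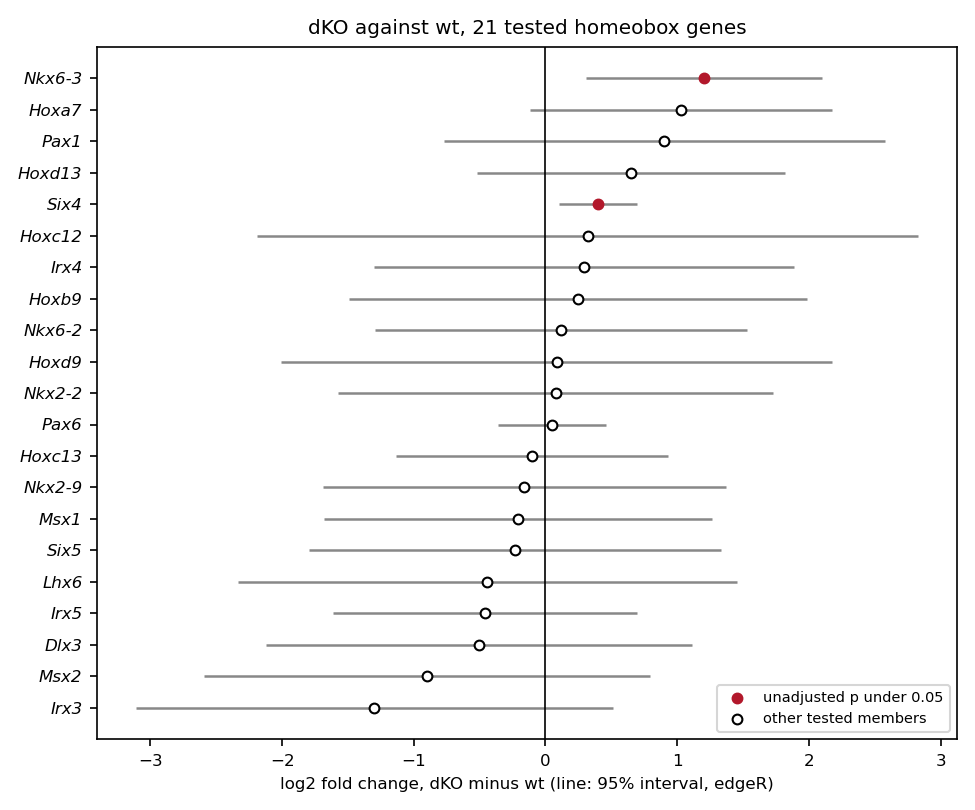
Log2 fold change of dKO minus wt for 21 tested members (points) with 95% intervals from edgeR (lines), ordered by size. Filled points mark Nkx6-3 and Six4, whose intervals exclude 0 before adjustment, and all other intervals except that of Pax6 reach past 1 or -1.

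Six4 (ENSMUSG00000034460, chromosome 12, 74200596 to 74215024 in the table's own build) had 1216 and 1259 counts in dKO libraries and 703 and 893 counts in wt libraries. Scaled, this was 74.7 and 75.1 CPM in dKO libraries, against 55.0 and 58.7 CPM in wt libraries. Both dKO values lay above both wt values, and the means were 74.9 ± 0.32 and 56.8 ± 2.65 CPM (SD, n = 2 each). The log2 fold change was 0.40 (SE 0.12, 95% interval 0.10 to 0.69, edgeR unadjusted p = 0.0170, adjusted p = 0.723). It ranged from 0.34 to 0.45 with 1 library left out.

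A tested protein-coding gene beside Six4, chosen after the result was seen, was Mnat1, a subunit of the CDK-activating kinase, with 1865 and 1885 counts in dKO libraries and 1464 and 1396 in wt libraries. Its log2 fold change was 0.14 (edgeR unadjusted p = 0.376).

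Six2, Six5 and Six6, of the same family, were low. Six5, known as the neighbour of the myotonic dystrophy kinase gene, had 16 and 43 counts in dKO libraries and 16 and 44 in wt libraries, with a log2 fold change of -0.23. Six2, a factor of kidney progenitors, had 6 and 5 counts in dKO libraries and 6 and 2 in wt libraries. Six6, a factor of eye and pituitary, had 2 and 2 counts in dKO libraries and 4 and 0 in wt libraries. Six6 overlaps a more abundant gene on the opposite strand, and reads from the overlap may have been dropped.

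Nkx6-3 (ENSMUSG00000063672, chromosome 8, 24263743 to 24269420), a factor of the stomach and gut, had the largest positive log2 fold change among the tested members. It had 52 and 59 counts in dKO libraries and 16 and 25 counts in wt libraries, or 3.19 and 3.52 CPM in dKO libraries, against 1.25 and 1.64 CPM in wt libraries. Replicates lay close together and the genotypes were well apart, with a log2 fold change of 1.204 (SE 0.36, 95% interval 0.31 to 2.10, edgeR unadjusted p = 0.0170, adjusted p = 0.723). It ranged from 1.02 to 1.42 with 1 library left out. Its nearest tested neighbours, also chosen after the result was seen, were Ank1, a membrane-skeleton ankyrin 2774 bases away, with 10 and 12 counts in dKO libraries and 5 and 10 in wt libraries (log2 fold change 0.32), and Gpat4, an enzyme of glycerolipid synthesis, with 0.10. Neither passed the test (edgeR adjusted p = 0.990 for each).

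In 5 of the 24 tested members both dKO libraries lay above both wt libraries, against 17.2% of all tested genes, and in 3 both lay below, against 16.4%. The first group included Six4, Nkx6-3, Hoxa7 and Pax1. Hoxa7, an axial patterning gene, had 19 and 27 counts in dKO libraries and 8 and 11 counts in wt libraries (log2 fold change 1.03, edgeR adjusted p = 0.907). Pax1, a factor of the sclerotome, had 11 and 14 counts in dKO libraries and 8 and 3 in wt libraries (0.90, edgeR adjusted p = 0.969). The second group included Irx3 and Irx5. Irx3, a factor of neural and heart patterning, had the largest negative value, with 3 and 12 counts in dKO libraries and 10 and 22 in wt libraries (-1.30, SE 0.73, edgeR adjusted p = 0.942). Irx5, its neighbour in the same Iroquois cluster, had 11 and 12 counts in dKO libraries and 11 and 16 in wt libraries (-0.46). These counts are small, and the intervals of Hoxa7, Pax1, Irx3 and Irx5 all included 0.

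Pax6 was the second most abundant member in CPM and the best-measured example of similar levels. It had 421 and 372 counts in dKO libraries and 287 and 365 in wt libraries, or 25.8 and 22.2 CPM in dKO libraries, against 22.4 and 23.995 CPM in wt libraries. The genotypes overlapped. The log2 fold change was 0.05 (95% interval -0.36 to 0.46). The gene overlaps Elp4 on the opposite strand, a subunit of the Elongator complex, which had a log2 fold change of 0.15. Pax6 made up 93.4% of the counts of the 9 Pax genes. Pax8, a thyroid and kidney factor below the filter, had 8 and 6 counts in dKO libraries and 4 and 12 in wt libraries.

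The Hoxb, Hoxc and Hoxd clusters were each led by 1 gene that held most of the assigned counts. The leading gene of the Hoxb cluster was Hoxb9, with 64.8% of counts, and those of the Hoxc and Hoxd clusters were Hoxc13 and Hoxd13, at their 5′ ends, with 64.0% and 61.5%. Per kb of exon, Hoxb9, Hoxc13 and Hoxd13 stood at means of 0.86, 1.09 and 0.84 CPM over 4 libraries, and Hoxc12 at 0.49. Hoxb9, Hoxc13 and Hoxd13 overlap no other gene in the count table. Several low genes of their clusters do, such as Hoxb3, Hoxc8 and Hoxd10, while others, such as Hoxb13, Hoxc11 and Hoxd12, do not. Reads of overlapping genes may have been dropped, so this order holds for assigned reads only. All 38 Hox genes together had 228 and 441 counts in dKO libraries and 198 and 337 in wt libraries.

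**Figure D4:**
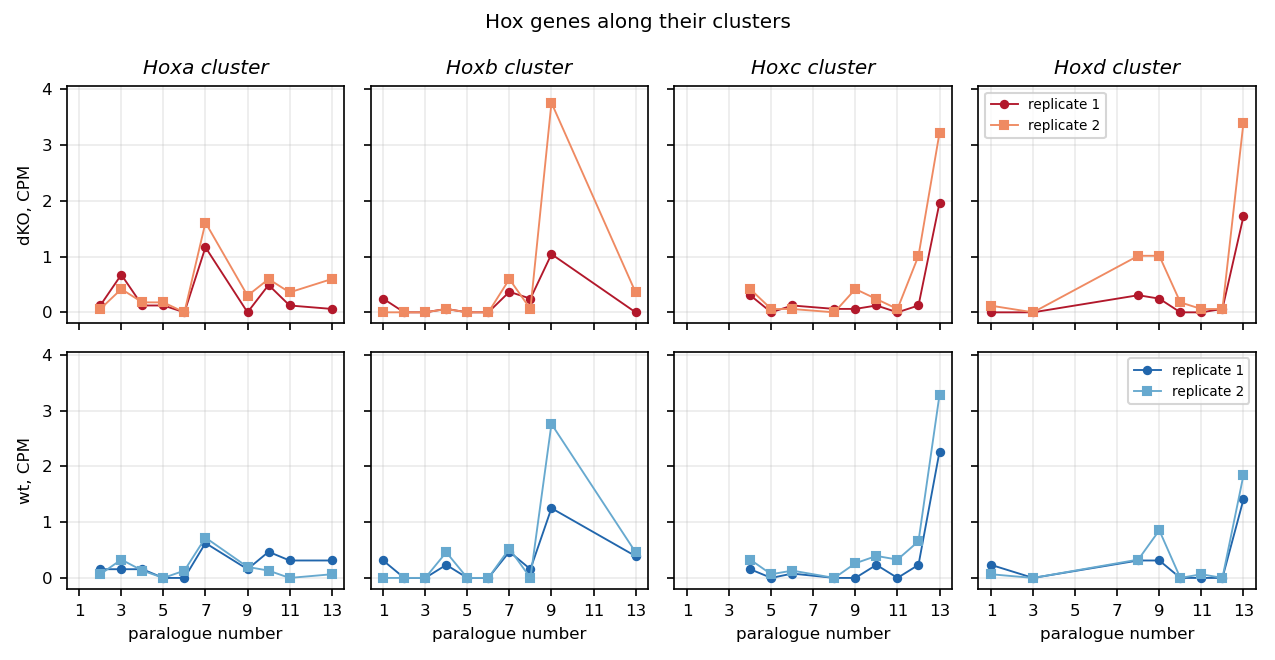
CPM of the Hox genes described here (y axis) by paralogue number (x axis) for the 4 clusters, with dKO cells in the upper and wt cells in the lower panels and 1 line per library. In both genotypes Hoxb9, Hoxc13 and Hoxd13 stand above the other genes of their clusters, and replicate 2 lies above replicate 1 at each of these peaks.

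The leading genes did not separate the genotypes. Hoxb9, a gene of thoracic patterning, had 17 and 63 counts in dKO libraries and 16 and 42 in wt libraries (0.25, SE 0.70). Hoxc13, a gene of hair and nail, had 32 and 54 counts in dKO libraries and 29 and 50 in wt libraries (-0.10, SE 0.42). Hoxd13, a gene of the digits, had 28 and 57 counts in dKO libraries and 18 and 28 in wt libraries (0.65, SE 0.47). In each of these 3 genes the dKO replicates differed from each other by more than the genotype means did. In CPM, Hoxb9 was lowest and highest in the 2 dKO libraries (1.04 and 3.76), with both wt libraries between (1.25 and 2.76).

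The next genes of these clusters were near the filter. Hoxb7, an axial patterning gene like Hoxa7, had 6 and 10 counts in dKO libraries and 6 and 8 in wt libraries and was not tested. Hoxc12 had a log2 fold change of 0.32 (SE 1.01) on the counts given above, and Hoxd9, a gene of limb and spinal cord, had 4 and 17 counts in dKO libraries and 4 and 13 in wt libraries (0.09, SE 0.85). In both of these posterior genes replicate 2 was the higher one in each genotype.

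Summed by cluster, Hoxa genes had 6.94 and 10.1 CPM in dKO libraries and 7.43 and 9.34 CPM in wt libraries, and Hoxb genes 1.96 and 4.83 CPM in dKO libraries and 2.81 and 4.21 CPM in wt libraries. Hoxc genes had 2.76 and 5.49 CPM in dKO libraries and 2.97 and 5.46 CPM in wt libraries, and Hoxd genes 2.33 and 5.85 CPM in dKO libraries and 2.27 and 3.16 CPM in wt libraries. All 4 clusters overlapped between genotypes. The Hoxd sum was 1.51-fold higher in dKO cells, a difference that 2 against 2 libraries cannot test, since the smallest exact permutation p is 0.333. Without dKO replicate 2 its log2 ratio of dKO over wt was -0.22.

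Several members differed more between the 2 libraries of a genotype than between genotypes, and in the same direction in both genotypes. Lhx6, a factor of cortical interneurons, had 37 and 142 counts in dKO libraries and 44 and 169 in wt libraries. Msx2, a BMP target of skull and limb, had 23 and 62 counts in dKO libraries and 30 and 109 in wt libraries. Both were high in replicate 2 and low in replicate 1 of each genotype, by over 2-fold on the scale of log2(CPM + 0.5). A difference of at least 2-fold in both genotypes, whatever its direction in each, was found in 2.09% of all tested genes.

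The opposite pattern was seen in neural-tube genes of the Nkx family and in Msx1. Nkx2-9 had 73 and 43 counts in dKO libraries and 78 and 28 in wt libraries. Nkx6-2 had 101 and 59 counts in dKO libraries and 86 and 35 in wt libraries, and it overlaps the abundant gene Inpp5a on the other strand. Msx1, like Msx2 a target of BMP signalling, had 29 and 17 counts in dKO libraries and 30 and 14 in wt libraries. In these 3 genes, as in Nkx2-2 with 12 and 7 counts in dKO libraries and 10 and 5 in wt libraries, replicate 1 was the higher one in both genotypes.

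Among the 24 tested members, 16 were higher in replicate 2 of both genotypes, against 35.9% of all tested genes, and 5 were higher in replicate 1 of both, against 36.4%. The remaining 3 members, Dlx3, Pax1 and Pax6, went one way in one genotype and the other way in the other. The fibroblast and trophoblast marker sums given above were also higher in replicate 2, through a few genes each. In the first it was Acta2, and in the second mostly the keratins Krt8, with 1045 and 2946 counts in dKO libraries and 1631 and 3795 in wt libraries, and Krt18, with 1080 and 3052 in dKO libraries and 1521 and 3758 in wt libraries. Ascl2, also of the trophoblast list, had 47 and 47 counts in dKO libraries and 54 and 33 in wt libraries. The neural marker sum was higher in replicate 1, with 84.2 and 55.3 CPM in dKO libraries and 114 and 63.6 CPM in wt libraries, mostly through Nes, with 652 and 280 counts in dKO libraries and 763 and 347 in wt libraries. Their part in the pattern of the homeobox genes was not tested, and the labels do not say what the replicate number stands for. Log2 fold changes of these genes between genotypes moved with the library left out. Lhx6 had -0.44 with all libraries and 0.64 with wt replicate 2 left out, and Nkx2-9 had -0.16 with all libraries and 0.92 with wt replicate 1 left out.

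**Figure D5:**
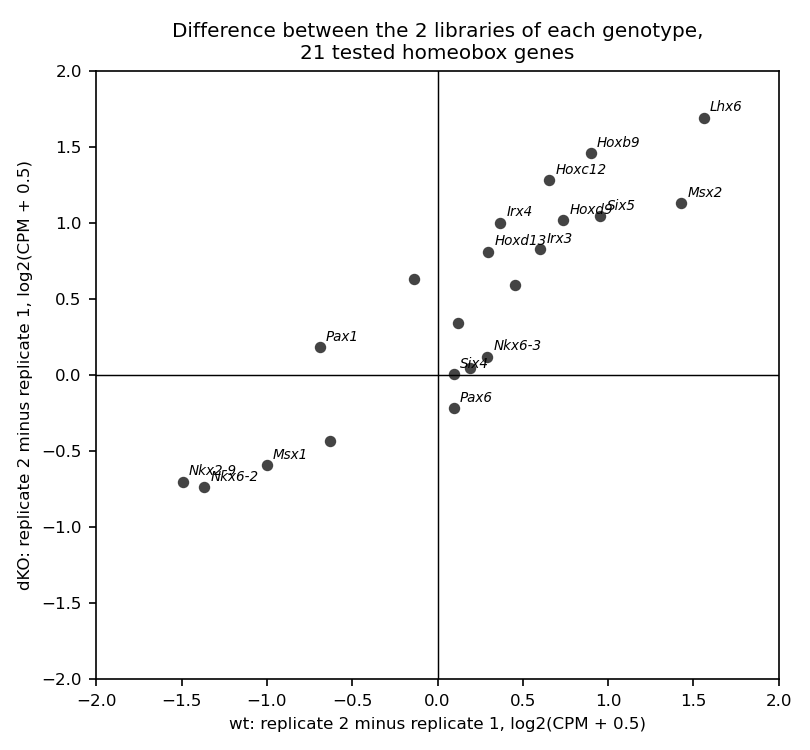
Difference between replicate 2 and replicate 1 on the scale of log2(CPM + 0.5) in wt cells (x axis) and in dKO cells (y axis), 1 point per member. Of the 21 points, 14 lie in the upper right quadrant with Lhx6, Hoxb9 and Msx2 farthest out, and 4 in the lower left with Nkx2-9, Nkx6-2 and Msx1, while Six4 and Nkx6-3 lie near the origin.

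The other families were low. The 7 Lhx genes summed to 3.4995 and 10.1 CPM in dKO libraries and 5.16 and 12.5 CPM in wt libraries, and Lhx6 held 81.2% of their counts. Lhx9, a factor of gonad and brain, had 6 and 6 counts in dKO libraries and 11 and 8 in wt libraries. The 6 Dlx genes, known from forebrain and jaw, summed to 1.04 and 1.91 CPM in dKO libraries and 1.17 and 1.38 CPM in wt libraries. Dlx3, which acts in placenta and skin, was the highest of them per kb, with 4 and 11 counts in dKO libraries and 9 and 9 in wt libraries, and Dlx2, a forebrain gene, had 5 and 6 in dKO libraries and 0 and 3 in wt libraries.

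The 6 Irx genes summed to 1.90 and 3.64 CPM in dKO libraries and 2.74 and 4.08 CPM in wt libraries. Irx4, a gene of the heart ventricle, led them with 9 and 27 counts in dKO libraries and 9 and 16 in wt libraries (log2 fold change 0.29, SE 0.64). The 3 Msx genes summed to 3.32 and 5.13 CPM in dKO libraries and 5.003 and 8.35 CPM in wt libraries. The 2 Barx genes, of jaw and stomach, summed to 0.921 and 0.298 CPM in dKO libraries and 0.313 and 0.526 CPM in wt libraries, from at most 8 counts per gene and library. The 14 Nkx genes had 16.9 and 12.05 CPM in dKO libraries and 18.1 and 9.66 CPM in wt libraries. In the Lhx, Dlx, Irx, Msx, Barx and Nkx sums the genotypes overlapped. Of 12 family and cluster sums, the one to which Six4 belongs was the only one in which they did not. Six4 held most of the counts of that sum, so the sum does not stand apart from the gene. With 2 against 2 libraries its exact permutation p was 0.333, the smallest possible. Of all tested genes, both dKO libraries lay above both wt libraries in 17.2% and below both in 16.4%.

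Genes that act with or upon the homeobox genes were compared in the same test, and none of them passed an adjusted p of 0.05 in edgeR. Of 63 other developmental homeobox genes 18 were tested, with 0 at an unadjusted edgeR p under 0.05 in either direction, a median log2 fold change of -0.18, and 4 positive and 14 negative values. Otx2, a forebrain and epiblast factor and the highest of them in CPM, had 78.1 ± 9.11 CPM in dKO cells and 92.4 ± 11.9 CPM in wt cells (SD, n = 2 each). The next, Gbx2, a hindbrain and pluripotency factor, had 17.4 ± 10.2 CPM in dKO cells and 11.3 ± 6.64 CPM in wt cells (SD, n = 2 each). The 9 TALE homeodomain genes, partners of Hox proteins on DNA, were all tested, with 3 positive and 6 negative values, a median of -0.28 and 0 at an unadjusted edgeR p under 0.05. Among them Pknox1 had a log2 fold change of 0.19 and Pbx2 of -0.32.

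Of 15 partners of sine oculis and LIM homeodomain proteins 9 were tested, with a median of -0.005 and 1 gene in each direction at an unadjusted edgeR p under 0.05. Over all tested genes 2.87% passed that mark with positive and 2.71% with negative values. The Eya and Dach genes encode coactivators and corepressors that act with sine oculis factors. Dach2 had a log2 fold change of 1.06 and Eya4 of -1.66 (edgeR adjusted p = 0.844 and 0.796), both chosen after their values were seen. Rlim, a ubiquitin ligase acting on LIM factors, had 0.18 and Ldb1, the LIM-domain binding protein, -0.08.

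All 32 Polycomb genes were tested, with 23 positive and 9 negative values and a median of 0.06, against -0.002 over all tested genes. At an unadjusted edgeR p under 0.05 there were 2 of the 32, against 5.57% of all tested genes. Both were positive, Bcor (0.37) and Kdm2b (0.34), subunits of a variant Polycomb complex that were named after their values were seen. Jarid2, a subunit of Polycomb repressive complex 2, had 1011 ± 317 CPM in dKO cells and 844 ± 151 CPM in wt cells (SD, n = 2 each), and Phc1 of complex 1 had 970 ± 136 CPM in dKO cells and 795 ± 201 CPM in wt cells (SD, n = 2 each). Differences in both were within the spread of replicates. The 11 Trithorax and H3K27 demethylase genes had a median of 0.11, with Ash2l at 0.02 and Wdr5 at -0.18, and the 12 tested of 16 retinoic acid pathway genes a median of -0.22, with Rarg at -0.004 and Rxrb at -0.18. Neither list had a gene at an unadjusted edgeR p under 0.05.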

How the data were processed

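TruSeq RNA libraries were prepared from Trizol-extracted total RNA of 2 dKO and 2 wt mESC samples, per the labels. Raw counts of reads per Ensembl gene were deposited by the authors in a single table that also holds gene positions. The submitters' processing notes list TopHat2 2.0.6, HTSeq and TopHat and give no roles. Build, annotation and strand setting: not given in the sources used here. Overlapping genes' reads may have been dropped or divided. With 2 replicates, the edgeR p-values set the genotype difference against the spread between these libraries, estimated with help from all tested genes. In the main test that spread includes any shift shared by libraries with the same replicate number.

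Symbols, biotypes and exon lengths came from GENCODE M21 by gene ID (32919 of 37991 genes matched), and promoters from RefSeq. Genes were filtered with filterByExpr (minimum count 10, minimum total 15), normalised by TMM and compared by genotype alone with the robust quasi-likelihood F test of edgeR 4.0.16 under R 4.3.3. P-values were adjusted over 14027 genes (Benjamini-Hochberg, threshold 0.05). Standard errors were computed from the F statistic. CPM per kb is CPM divided by the union of exons. The test was checked on simulated counts. These were drawn independently for each library, without a deviation shared by libraries with the same replicate number. The check therefore does not cover such a deviation.

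The members and gene lists were chosen with earlier results of these data known. Genes were named by rule: members past the threshold or with an unadjusted p under 0.05, the 2 highest in CPM of each family, the 4 largest positive and negative log2 fold changes, and the 2 highest of each gene list. Others were named after their values were seen, and some members are not reported here. Alternatives were DESeq2 1.42.0 size factors, total counts, no filter, a filter of 1 CPM, a replicate block, each library left out (with the same 14027 genes, where the lone library is assumed to vary like the others), the DESeq2 Wald test, limma-voom (limma 3.58.1), an adjusted p of 0.01, and other counts for detection.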

Additional observations from a re-analysis of the deposited data

How the results depend on the processing

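No member passed an adjusted p of 0.05 under any alternative run except the replicate block. The replicate block called 4 members, among them Six4 (log2 fold change 0.40, edgeR adjusted p = 0.0106), Nkx6-3 (1.21, 0.0137) and Msx2 (-0.88, 0.0388), with 8 at an unadjusted p under 0.05. It also called 9 genes of the partner and regulator lists, against 0 without it, and 1299 of all 14027 genes, against 12. Libraries with 1 number deviated in common over all tested genes (Pearson r = 0.677), a hint from the data and not from the labels, which name no shared batch. DESeq2 gave no adjusted p to 55 of the 83 members it fitted. At an unadjusted p under 0.05 there were 5 members with a filter of 1 CPM, and 0 to 4 with 1 library left out, against 3 (0 without dKO replicate 1, 1 without wt replicate 1). The median log2 fold change of the tested members ran from -0.50 (without dKO replicate 2) to 0.23 with 1 library left out. Uncalled log2 fold changes changed sign by limma-voom for Hoxc12 (-0.14), Hoxd9 (-0.082) and Nkx2-9 (0.059). With 1 library left out they ran from -0.95 to 0.94 for Hoxb9, -1.82 to 1.26 for Hoxc12, -0.50 to 0.21 for Hoxc13, -1.25 to 0.997 for Hoxd9, -1.36 to 0.021 for Dlx3, -0.67 to 0.86 for Irx4, -1.68 to 0.64 for Lhx6, -0.75 to 0.59 for Msx1, -1.75 to 0.13 for Msx2, -0.44 to 0.79 for Nkx2-2, -0.79 to 0.92 for Nkx2-9, -0.47 to 1.07 for Nkx6-2, -0.068 to 0.15 for Pax6 and -1.08 to 0.50 for Six5. The cause was not tested. Members with at least 5 counts numbered 35 and 47 in dKO libraries and 31 and 39 in wt libraries, and with at least 10 counts 20 and 28 in dKO libraries and 19 and 22 in wt libraries. Scaling by DESeq2 size factors or total counts changed the sign of no tested member. Members with few counts and some with many were measured imprecisely, with standard errors of 1.01 for Hoxc12 and 0.76 for Lhx6.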
